A study of Mus musculus with 4 samples.

Results

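The mouse mitochondrial genome carries 37 annotated genes, and all of them were in the count table, where they were found by symbols that begin with mt-. They are 13 messenger RNA genes, 2 ribosomal RNA genes and 22 transfer RNA genes among 55453 genes in all. Their chromosome, start, end, strand and class were the same in GENCODE release M21 (mm10, GRCm38) for all 37. Only 10 had a count: 7 messenger RNAs, both ribosomal RNAs and the proline transfer RNA mt-Tp. The other 27 were at 0 in all 4 libraries. The libraries came from mouse oocytes taken directly from the ovary, 2 labelled WT and called control here, and 2 labelled Parp12 knockdown. The series describes the oocytes as being at the germinal vesicle stage, the prophase arrest that precedes maturation. Strain, age, the way the knockdown was made and whether oocytes of several animals were pooled were not stated in the labels used here. Poly(A) RNA was selected with magnetic beads before library preparation.

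Mitochondrial DNA is a small circle that is transcribed from both strands into long precursors. The messenger and ribosomal RNAs lie end to end, mostly with transfer RNAs between them, and excision of the transfer RNAs releases most of the others. Most messenger RNAs of mammalian mitochondria carry short poly(A) tails, and mature transfer RNAs end in CCA instead. The proteins are core subunits of the respiratory chain and the ATP synthase, and oocytes hold a large store of mitochondria for the early embryo.

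The libraries held between 35805122 and 45230773 counts. Parp12 had 14279 and 9419 counts in control libraries against 32 and 86 in knockdown libraries. Its log2 fold change was -7.51 (edgeR quasi-likelihood test, adjusted p 1.27e-07). All 18 listed oocyte markers had counts, and they summed to between 36628 and 39610 CPM (counts per 1000000 counts of the library). Of 18 granulosa and cumulus markers 10 had counts, summing to 609.2 and 553.4 CPM in control libraries against 500.3 and 580.8 CPM in knockdown libraries, mostly from Serpine2, which had between 365.7 and 442.3 CPM. Next came Nr5a2 with between 90.8 and 117.4 CPM, Cyp19a1 with between 23.8 and 29.3 and Kitl with between 13.7 and 21.6. Krt18, Krt19, Fst, Inhba, Inhbb, Amh, Amhr2 and Foxl2 were at 0 in every library. Theca and stroma markers, 9 of 11 with counts, summed to 3.54 and 6.45 CPM in control libraries against 2.58 and 3.35 CPM in knockdown libraries. Blood, macrophage and endothelial markers, 5 of 9 with counts, summed to 99.5 and 102.4 CPM in control libraries against 100.9 and 93.95 CPM in knockdown libraries, nearly all from Pecam1. In such bulk samples a smaller number of cells and less RNA per cell cannot be told apart.

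Leaving aside the transfer RNA genes at 0, counts lay in 2 stretches of the genome, separated by a run of genes at 0. The first held mt-Rnr1 (bases 70 to 1024 of the mitochondrial genome, mm10), mt-Rnr2 (1094 to 2675), mt-Nd1 (2751 to 3707), mt-Nd2 (3914 to 4951) and mt-Co1 (5328 to 6872). The second held mt-Nd4 (10167 to 11544), mt-Nd5 (11742 to 13565), mt-Nd6 (13552 to 14070), mt-Cytb (14145 to 15288) and mt-Tp (15356 to 15422). Each of the 37 genes is a single exon in the count table, with no intron. On the plus strand 8 of 28 genes had counts, and on the minus strand 2 of 9, mt-Nd6 and mt-Tp. The 6 messenger RNA genes at 0 were mt-Co2, mt-Co3, mt-Atp8, mt-Atp6, mt-Nd3 and mt-Nd4l, which are neighbours. Runs of A within the gene sequences, to which poly(T) beads could bind, reached 8 bases in any gene. The longest run was 8 bases in mt-Nd2 and 7 in mt-Rnr2, mt-Co1, mt-Nd4 and mt-Nd5. It was 6 in mt-Nd1, 5 in mt-Rnr1 and mt-Cytb, 3 in mt-Nd6 and 2 in mt-Tp. Among transfer RNA genes at 0 it was 8 in mt-Tr, 6 in mt-Th and between 2 and 5 in the others. In the messenger RNA genes at 0 it was 4 or 5. These sequences leave out poly(A) tails, and the part of such runs in the counts was not tested. Taking 3 counts as the limit, a gene at 0 could have reached 0.0663 to 0.0838 CPM depending on the library, by counting error only.

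**Figure D1:**
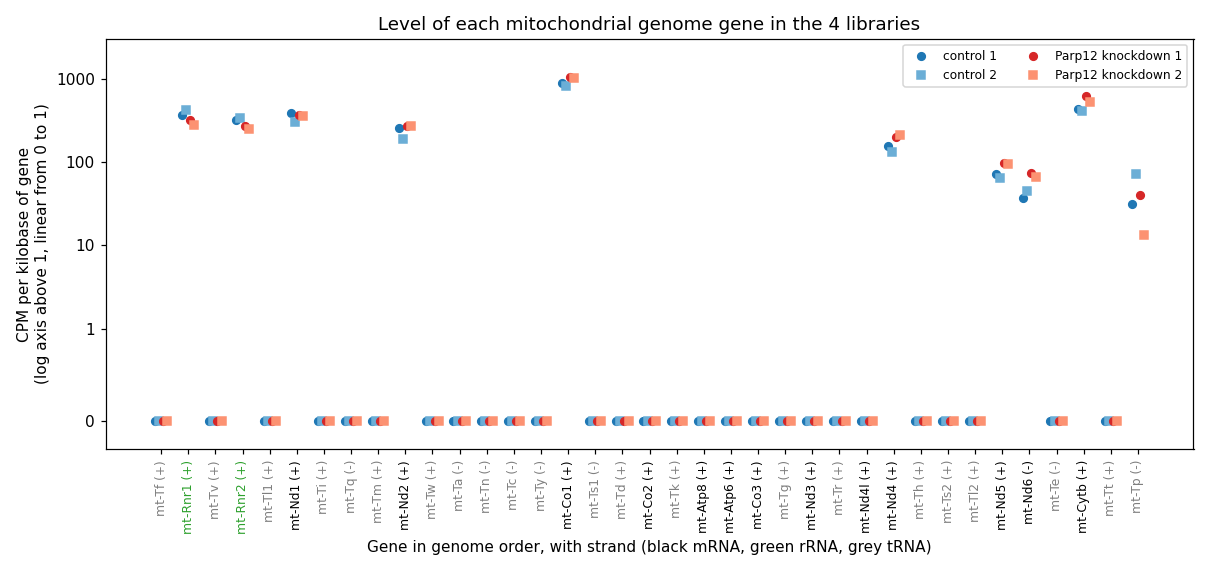
Level of each of the 37 mitochondrial genes, in genome order, in CPM per kilobase of gene (log axis above 1, linear below), with 1 point per library. Of the 37 genes, 27 lie at 0 in all 4 libraries, including 21 of 22 transfer RNA genes and the run from mt-Ts1 to mt-Nd4l.

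The messenger RNA genes at 0 lie in a stretch of the mitochondrial genome with annotated nuclear copies on chromosome 1, which also takes in parts of mt-Co1 and mt-Nd4. The 7 nuclear genes Gm29216, Gm28661, Gm10925, Gm28437, Gm28438, Gm10222 and Gm28439 lie there on the minus strand, from 24611535 to 24616197 of mm10. In this order they match the end of mt-Co1, then mt-Co2, mt-Atp6, mt-Co3, mt-Nd3, mt-Nd4l and the first 876 bases of mt-Nd4. Over 4149 aligned bases the nuclear genes differed from the mitochondrial ones at 7, of which 6 lay in the mt-Co1 match. The sum of mitochondrial and chromosome 1 coordinates at matching bases varied by at most 1 across the 7 genes, so they lie in the same order and spacing in both places. By this spacing the stretch corresponds to bases 6381 to 11043 of the mitochondrial genome. All 6 messenger RNA genes that lie wholly inside it had 0 counts. mt-Co1 and mt-Nd4, which reach into it, had counts, as did the 5 messenger and 2 ribosomal RNA genes wholly outside. The 5 transfer RNA genes inside were at 0, but so were 16 of the 17 outside. Chromosome 1 sequence between the annotated genes, where mt-Atp8 and the transfer RNA genes would fall, was not read. The treatment of multi-mapping reads is not stated in the labels used here, and the part of this copy in the counts of 0 was not tested.

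For each gene the share of its 50-base windows that also occur in annotated nuclear transcripts was computed. The share was 100% for mt-Co2, 99.5% for mt-Atp6, 99.9% for mt-Co3, 98.0% for mt-Nd3 and 98.8% for mt-Nd4l, all at 0 counts. It was 62.2% for mt-Nd4 and 51.1% for mt-Co1, which had counts. It was 8.19% for mt-Nd2, 7.61% for mt-Nd5 and 1.04% for mt-Rnr2, and 0% for mt-Nd1, mt-Rnr1, mt-Nd6, mt-Cytb and every transfer RNA gene. With windows of 100 bases the share was 30.8% for mt-Co1 and 60.8% for mt-Nd4. mt-Atp8 was the only messenger RNA gene at 0 with a share of 0%. By the common spacing its unshared part falls in the 233 bases of chromosome 1 between Gm10925 and Gm28661, from 24614652 to 24614884. No gene of the table has an exon in that gap, so a scan of annotated transcripts could not find a match there. The nuclear genome sequence was not used here.

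**Figure D2:**
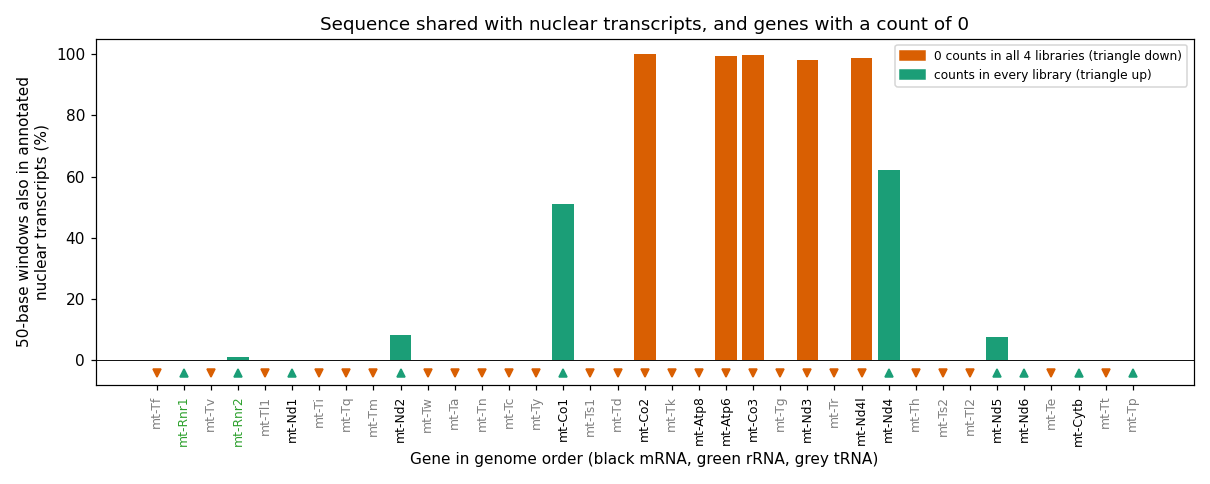
Share of 50-base windows of each mitochondrial gene that also occur in annotated nuclear transcripts, in percent, in genome order, with triangles marking genes with and without counts. The 5 genes with shares of 98.0% or more had 0 counts in all libraries, whereas mt-Co1 and mt-Nd4, at 51.1% and 62.2%, had counts.

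Of the chromosome 1 copies, most counts were in the match of mt-Nd3, which encodes a membrane subunit of complex I. Gm28438 had 215 and 172 counts in control libraries against 141 and 180 in knockdown libraries, while mt-Nd3 had 0 in all 4. The 2 sequences differ at 1 of 345 aligned bases, T3C, counted from 1 at the first base of mt-Nd3 with the mitochondrial base first. The first 60 bases of each gene are shown, mt-Nd3 at MT:9459-9518 on the plus strand and Gm28438 at chr1:24613060-24613119 on the minus strand (GENCODE M21 transcripts, mm10), with the differing base in capitals.
mt-Nd3: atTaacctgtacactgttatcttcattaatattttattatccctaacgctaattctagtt
Gm28438: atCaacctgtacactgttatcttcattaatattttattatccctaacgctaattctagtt
The copy of mt-Nd4l, Gm10222, had 7 and 0 counts in control libraries against 27 and 0 in knockdown libraries. The other 5 genes of the chromosome 1 copy had at most 2 counts in a library. A second set, Gm13339, Gm13340 and Gm13341 on chromosome 2, matches mt-Nd2, mt-Co1 and mt-Co2 at 96.7%, 97.6% and 74.3% of aligned bases. Bases were compared without gaps, so an inserted or missing base could make those beyond it count as differences. With mt-Co2, Gm13341 shared 224 exact windows, although 173 of 672 aligned bases differed. Whether a gap lies behind the 74.3% was not tested, so this value may understate the match. Gm13341 had 1 and 29 counts in control libraries against 1 and 2 in knockdown libraries, and the other members of that set had at most 1 count in a library. The 7 chromosome 1 genes together had between 170 and 224 counts per library, against between 141403 and 177215 counts for the mitochondrial genes.

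Transfer RNA genes carried almost no counts. They are 59 to 75 bases long, 14 on the plus and 8 on the minus strand, and read the genetic code for the mitochondrial ribosome. Of the 22 genes 21 had 0 counts, on both strands, also where both neighbours had counts. The valine gene mt-Tv, for example, fills the space between the ribosomal RNA genes mt-Rnr1 and mt-Rnr2 without a spare base. The junction is shown with 25 bases of each ribosomal RNA gene and mt-Tv in capitals, at MT:1000-1118 on the plus strand of mm10 (GENCODE M21 transcripts).
mt-Tv: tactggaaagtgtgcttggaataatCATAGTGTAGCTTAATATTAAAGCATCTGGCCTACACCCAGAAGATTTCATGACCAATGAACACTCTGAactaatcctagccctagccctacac
mt-Tv had 0 counts in all libraries, beside between 9427 and 16223 for mt-Rnr1 and between 14096 and 22603 for mt-Rnr2. Of the 20 transfer RNA genes with an annotated gene on both sides, 18 lay within 6 bases of both neighbours or overlapped them, and the largest gap, between mt-Tn and mt-Tc, was 32 bases. Nuclear genes of the same length were also mostly empty: 10 of 803, or 1.25%, had a count, against 38.5% of all genes in the table. Whether gene length, the missing poly(A) tail or the handling of reads that touch 2 genes plays a part in the counts of 0 was not tested.

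mt-Tp, for proline transfer RNA, was the exception. It had 95 and 197 counts in control libraries against 116 and 32 in knockdown libraries, or 2.10, 4.81, 2.72 and 0.894 CPM. The groups overlapped, since knockdown 1 lay between the controls. Its log2 fold change of -0.85 had an SE of 0.81 and a 95% interval from -2.59 to 0.89, at adjusted p 0.927 (edgeR), and it ran from -1.92 to -0.17 when each library was left out in turn. mt-Tp is the last annotated gene of the genome map and lies on the minus strand, next to the threonine gene mt-Tt on the plus strand, which had 0 counts. No annotated gene follows it on the map. The sequences are printed whole, each in its own sense, mt-Tt at MT:15289-15355 and mt-Tp at MT:15356-15422.
mt-Tt: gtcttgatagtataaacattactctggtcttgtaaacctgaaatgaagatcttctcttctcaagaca
mt-Tp: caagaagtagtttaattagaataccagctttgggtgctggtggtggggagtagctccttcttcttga
They have the same length of 67 bases, and neither shares a 50-base window with an annotated nuclear transcript. The labels used here do not say whether strand entered the counting, so reads of either strand could lie behind the counts of mt-Tp.

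Levels per length differed more than 10-fold between the measured messenger RNAs. In the controls mt-Co1, the catalytic subunit of cytochrome c oxidase, was highest at 858.0 ± 46.4 CPM per kilobase (SD, n = 2). mt-Cytb, the cytochrome b of complex III, followed at 415.9 ± 15.2 CPM per kilobase, mt-Rnr1 at 391.8 ± 32.8, mt-Nd1 at 343.6 ± 58.4, mt-Rnr2 at 324.7 ± 12.4 and mt-Nd2 at 222.5 ± 48.0. mt-Nd4 had 144.0 ± 17.0, mt-Nd5 68.0 ± 4.91, mt-Tp 51.6 ± 28.6 and mt-Nd6 41.2 ± 5.53 CPM per kilobase. In this order the ranges of the 2 controls overlapped between mt-Cytb and mt-Rnr1, between mt-Rnr1 and mt-Nd1, between mt-Nd1 and mt-Rnr2, and between mt-Tp and both mt-Nd5 and mt-Nd6. Counted per 1000 unshared windows in place of length, mt-Nd4 had 395.4 ± 46.7 CPM and lay beside mt-Cytb at 434.6 ± 15.8, and mt-Co1 had 1813 ± 98.0. In the knockdowns mt-Co1 was again highest, at 1028 ± 7.11 CPM per kilobase (SD, n = 2), and mt-Cytb followed at 571.4 ± 72.5. There mt-Nd1, at 362.3 ± 9.77, lay above mt-Rnr1, at 297.5 ± 30.8, whereas mt-Tp was lowest at 27.0 ± 19.3 and mt-Nd6 had 70.3 ± 5.53. The place of mt-Nd4 in the order therefore depended on how its shared part was counted, and its values and those of mt-Co1 are uncertain.

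In the comparison of knockdown with control, messenger RNAs lay higher in the knockdown libraries and ribosomal RNAs lower, but no mitochondrial gene passed the test. edgeR's quasi-likelihood test on the counts, with Benjamini-Hochberg adjustment over 15868 genes, called 0 of the 10 mitochondrial genes that passed the filter on low counts; over all tested genes it called 0.00630%. At an unadjusted p under 0.05 it listed 6 of the 7 messenger RNAs as higher, where 2.94% of all tested genes were listed, and both ribosomal RNAs as lower, where 2.57% were. DESeq2 called 7 of the 10, mt-Co1, mt-Nd4, mt-Nd5, mt-Nd6 and mt-Cytb as higher and mt-Rnr1 and mt-Rnr2 as lower, and of all genes it called 1.02% higher and 0.749% lower. limma-voom called 0 of the 10 and 0.00% of all tested genes, so that Parp12 was not called either (adjusted p 0.280). At an unadjusted p under 0.05 limma-voom listed 6 of the 10 as higher and 2 as lower, where it listed 2.36% of all tested genes as higher and 2.34% as lower. With a minimum of 1 CPM in both libraries of a group, a filter chosen after seeing the data, edgeR called 3 of the 10, where it called 0.0628% of all genes. Both knockdowns lay above both controls in CPM for 6 of the 7 messenger RNAs, as in 18.0% of all tested genes, and below both for the 2 ribosomal RNAs, as in 16.8%. Among genes over 100 CPM these shares were 17.3% above and 21.3% below, and 2.93% were higher and 4.70% lower at an unadjusted p under 0.05. The medians were 0.46 over the messenger RNAs, -0.36 over the ribosomal RNAs and 0.00 over all tested genes on the log2 fold change scale.

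Subunits of complex I, the NADH dehydrogenase of the respiratory chain, were the largest group. mt-Nd4 had 215.1 and 181.9 CPM in control libraries against 272.4 and 290.3 CPM in knockdown libraries, so both knockdowns lay above both controls. Its log2 fold change of 0.50 had an SE of 0.10 and a 95% interval from 0.28 to 0.72 (edgeR, adjusted p 0.835). mt-Nd5 had 130.3 and 117.6 CPM in control libraries against 175.2 and 170.4 CPM in knockdown libraries, also without overlap, and a log2 fold change of 0.48 (SE 0.11). mt-Nd2 had 266.1 and 195.7 CPM in control libraries against 279.5 and 280.4 CPM in knockdown libraries. The groups did not overlap, but control 1 lay close to the knockdowns, and the log2 fold change of 0.27 (SE 0.12) was 0.06 without control replicate 2 and 0.53 without control replicate 1. mt-Nd1 had 368.3 and 289.3 CPM in control libraries against 353.4 and 340.1 CPM in knockdown libraries, which lay between the controls. Its log2 fold change of 0.07 (SE 0.11) turned to -0.10 without control replicate 2 and was 0.27 without control replicate 1. The complex I genes mt-Nd3 and mt-Nd4l had no counts to compare.

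mt-Cytb, the cytochrome b gene, had 488.1 and 463.6 CPM in control libraries against 712.3 and 595.0 CPM in knockdown libraries. The knockdowns lay above the controls and apart from each other, and their log2 fold change of 0.46 had a 95% interval from 0.27 to 0.65 (edgeR, SE 0.09, adjusted p 0.835). It was the only mitochondrial gene called when genes had to reach 1 CPM in 2 libraries, with an adjusted p of 0.00897 by edgeR, where 0.0149% of all genes were called. Over the alternatives its adjusted p ran from 0.000280 to 0.994. mt-Co1 had 1376 and 1275 CPM in control libraries against 1596 and 1581 CPM in knockdown libraries, a log2 fold change of 0.26 (SE 0.06). Its knockdown libraries were nearly equal and lay above both controls.

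mt-Nd6 is the only messenger RNA gene on the minus strand, and it had the highest log2 fold change of the 10 tested genes. It had 19.3 and 23.4 CPM in control libraries against 38.5 and 34.4 CPM in knockdown libraries, without overlap. The log2 fold change was 0.78 (SE 0.23, adjusted p 0.835 by edgeR). It overlaps the end of mt-Nd5 on the plus strand by 14 bases, the longest overlap between genes of opposite strands in this genome. The last 30 bases of each gene are shown in its own sense with the overlap in capitals, mt-Nd5 at MT:13536-13565 on the plus strand and mt-Nd6 at MT:13552-13581 on the minus strand.
mt-Nd5: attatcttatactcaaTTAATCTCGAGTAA
mt-Nd6: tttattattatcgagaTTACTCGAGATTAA
Per length, mt-Nd6 stood at 52.2% and 69.9% of the mt-Nd5 level in control libraries and at 77.2% and 71.0% in knockdown libraries. The groups did not overlap in this ratio, though control 2 lay within 2 points of knockdown 2. The labels used here do not say whether strand entered the counting, so reads from the opposite strand could be among the counts of mt-Nd6.

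The ribosomal RNAs, which form the core of the small and large subunits of the mitochondrial ribosome, were lower in both knockdown libraries. mt-Rnr1, of the small subunit, had 352.0 and 396.3 CPM in control libraries against 304.9 and 263.3 CPM in knockdown libraries. Its log2 fold change of -0.39 (SE 0.09) had a 95% interval from -0.60 to -0.19. mt-Rnr2, of the large subunit, had 499.7 and 527.5 CPM in control libraries against 427.1 and 393.7 CPM in knockdown libraries, a log2 fold change of -0.32 (SE 0.08). The adjusted p was 0.835 for both by edgeR. The level of mt-Rnr2 per length was 0.857 and 0.804 of that of mt-Rnr1 in control libraries against 0.846 and 0.903 in knockdown libraries, with overlap between the groups. For both the highest library was control 2, followed by control 1, knockdown 1 and knockdown 2. The nuclear gene CT010467.1, annotated as ribosomal RNA, had the same order, with 761.9 and 884.6 CPM in control libraries against 687.1 and 410.1 CPM in knockdown libraries, and its part in the mitochondrial result was not tested. It made up nearly all of a list of RNAs without long poly(A) tails, of which 16 of 174 had counts; the list summed to 767.6 and 893.2 CPM in control libraries against 689.6 and 413.4 CPM in knockdown libraries. Next in that list came Snora47, with 126 and 138 counts in control libraries against 52 and 85 in knockdown libraries, and Rn7sk, with 29 and 138 counts in control libraries against 0 and 33 in knockdown libraries. Rny1 and Snord93 had counts in 1 library each, 79 in control 1 and 42 in control 2.

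As a sum, mitochondrial genes took 0.372% and 0.348% of the counts in control libraries against 0.416% and 0.395% in knockdown libraries. The knockdowns lay above the controls, with 3596 ± 171.4 CPM in control libraries against 4056 ± 150.6 CPM in knockdown libraries (SD, n = 2), a log2 ratio of 0.17. The classes differed in opposite directions within this sum. Messenger RNAs had 2864 and 2546 CPM in control libraries against 3428 and 3291 CPM in knockdown libraries, and ribosomal RNAs had 851.8 and 923.8 CPM in control libraries against 732.0 and 657.0 CPM in knockdown libraries. Ribosomal RNA was 22.9% (exact 95% interval 22.7% to 23.1%) and 26.6% (26.4% to 26.8%) of mitochondrial counts in control libraries. It was 17.6% (17.4% to 17.8%) and 16.6% (16.4% to 16.8%) in knockdown libraries. The messenger to ribosomal RNA ratio of summed counts was 3.36 and 2.76 in control libraries against 4.68 and 5.01 in knockdown libraries, so the knockdown ratios lay above the control ratios by more than the difference within either group. With 2 libraries a group an exact two-sided permutation test cannot go below 0.333, so none was run on these sums.

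**Figure D3:**
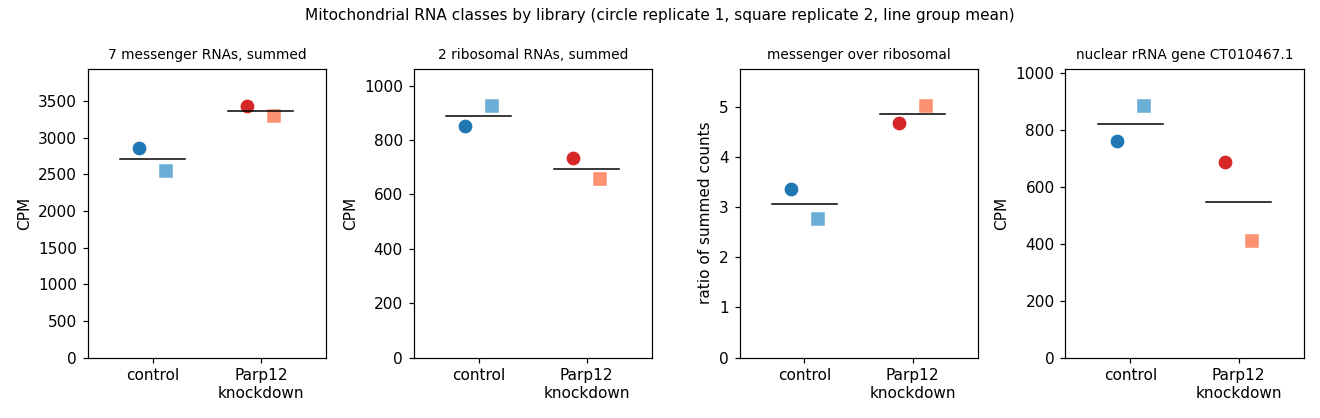
Summed level of the measured mitochondrial messenger RNAs and ribosomal RNAs in CPM, their ratio, and the level of the nuclear ribosomal RNA gene CT010467.1, with 1 point per library and a line at each group mean. The ratio was 3.36 and 2.76 in control libraries against 4.68 and 5.01 in knockdown libraries, and CT010467.1 was lowest in knockdown replicate 2, at 410.1 CPM.

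Over the 8 tested plus-strand genes the fitted log2 fold changes tended to rise along the genome. From the start of the map they were -0.39 for mt-Rnr1, -0.32 for mt-Rnr2, 0.07 for mt-Nd1, 0.27 for mt-Nd2, 0.26 for mt-Co1, 0.50 for mt-Nd4, 0.48 for mt-Nd5 and 0.46 for mt-Cytb. Spearman's rho between gene start and log2 fold change was 0.88 over these 8 genes and 0.71 over the 6 messenger RNAs alone. The ribosomal RNAs come first and are the only ones with negative values, so over the 8 genes class and position cannot be told apart. The genes share libraries and a precursor RNA, so they are not independent and no p is given. Over the 8 genes rho was 0.98, 0.95, 0.90 and 0.79 for the 4 ratios of a knockdown to a control library, which share libraries with each other. It was -0.26 for control 2 over control 1 and 0.17 for knockdown 2 over knockdown 1. Between the controls the log2 difference was -0.35 for mt-Nd1 and -0.44 for mt-Nd2, the genes with the widest spread apart from mt-Tp. Over the 6 messenger RNAs, however, rho was 0.77 for control 2 over control 1, so the order among messenger RNAs also appeared between the controls. Over the same 6 genes rho was 1, 0.89, 0.77 and 0.49 for the 4 ratios of a knockdown to a control library. For knockdown 2 over knockdown 1 it was -0.26. The last 3 plus-strand genes differed by less than their SEs.

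**Figure D4:**
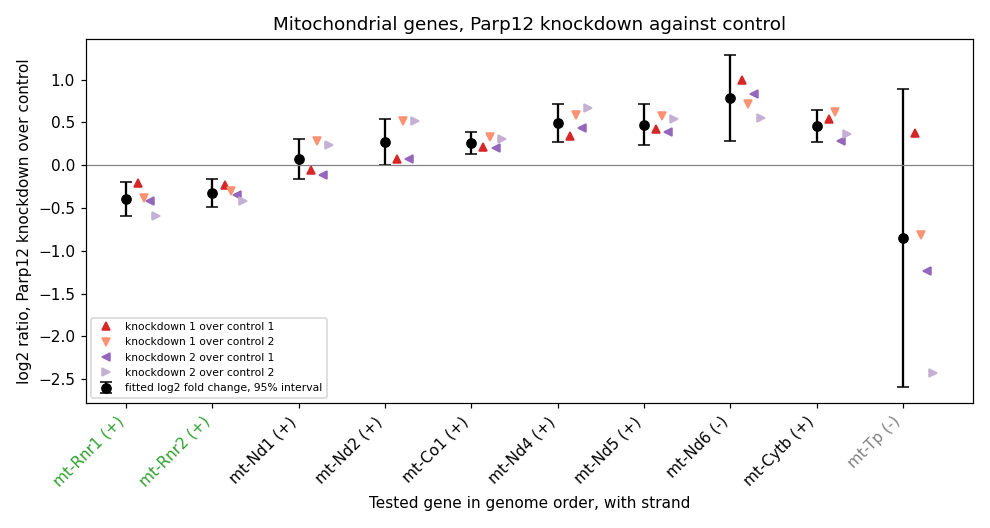
Log2 ratio of Parp12 knockdown over control for the 10 tested mitochondrial genes in genome order, with the fitted value and its 95% interval in black and the 4 ratios of single libraries in colour. Both ribosomal RNAs lie below 0, messenger RNAs range from 0.07 for mt-Nd1 to 0.78 for mt-Nd6, and the interval of mt-Tp runs from -2.59 to 0.89.

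Nuclear genes that transcribe and process mitochondrial RNA were counted in the same way. Of 60 listed symbols 59 were in the table and 56 were tested, with a median log2 fold change of 0.07. edgeR called 0 at an adjusted p under 0.05, where it called 0.00630% of all tested genes. At an unadjusted p under 0.05 it listed 1 as higher, where 2.94% of all tested genes were, and 0 as lower, where 2.57% were, so the list's counts were no larger than those shares. Tfb2m, a transcription factor needed to open the mitochondrial promoters, had 14.3 and 9.99 CPM in control libraries against 20.1 and 21.3 CPM in knockdown libraries, without overlap. Its log2 fold change was 0.75 (SE 0.31), with an adjusted p of 0.835 by edgeR. Polg, the catalytic subunit of the mitochondrial DNA polymerase, had 33.7 and 36.7 CPM in control libraries against 21.0 and 30.2 CPM in knockdown libraries, a log2 fold change of -0.48 (SE 0.24). Its accessory subunit Polg2 had 3.67 and 1.61 CPM in control libraries against 0.493 and 1.01 CPM in knockdown libraries. Qtrt2, of the enzyme that places queuine in transfer RNA, had a log2 fold change of -0.44 (SE 0.28), and Hsd17b10, a subunit of mitochondrial RNase P, had -0.78 (SE 0.52) with overlapping groups. These 5 had the smallest p in the list.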

How the data were processed

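The authors deposited raw counts per gene for 4 libraries of mouse oocytes, whole numbers with a different total per library; replicates were not pooled. Tools listed in the submitters' processing notes, with no role or order, are featureCounts 2.0.0, STAR 2.7.5b, DESeq2 1.28.1 and Trim Galore 0.6.4, with the build mm10. Per the file headers the table also gives each gene's summed exon length. The labels used here do not state how reads with several alignments, reads over 2 genes or strand were handled. Such settings can decide counts of short, overlapping or copied genes, as mitochondrial genes are. The table held 0 rows without a gene name and 0 columns of other samples.

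Groups and replicate numbers came from sample titles. Nothing says that replicates came from separate animals, so p-values measure the spread between these libraries, which can be technical. Counts were tested in R 4.3.3 with edgeR 4.0.16: filterByExpr (minimum count 10, total 15), TMM factors (0.991 to 1.01), estimateDisp, glmQLFit (robust, non-legacy) and glmQLFTest over the whole table, two-sided, with Benjamini-Hochberg adjustment at 0.05. The SE was taken from the F statistic. DESeq2 1.42.0 and limma-voom (limma 3.58.1) were alternatives, beside other scaling factors, filters, a replicate block and leaving out each library. The procedure was run on simulated counts with changes larger than those of the mitochondrial genes. That run does not show how often smaller changes would be called. CPM used library totals. Intervals of shares are Clopper-Pearson and cover counting error only.

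Shared windows were exact 50-base matches (alternative 100) of GENCODE M21 mitochondrial transcripts in either strand of all other M21 transcripts; differences to nuclear copies were counted without gaps. Members, lists and tests were chosen with earlier results of these data known. Named were all members with counts, Parp12, the nuclear genes that share their sequence on chromosomes 1 and 2, the 5 smallest p of the processing list and the 5 most abundant RNAs of the poly(A)-poor list. Serpine2, Nr5a2, Cyp19a1, Kitl and Pecam1 were named after their values were seen.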

Additional observations from a re-analysis of the deposited data

How the results depend on the processing

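The number of mitochondrial genes past the threshold was 0 under other scaling factors, no filter, the legacy fit and each library left out. It was also 0 with limma-voom, which called no gene of the table, Parp12 included (adjusted p 0.280). It was 1 (mt-Cytb) with a minimum of 1 CPM in 2 libraries and 7 with DESeq2. It was 3 (mt-Rnr1, mt-Nd4, mt-Cytb) with a minimum of 1 CPM in both libraries of a group, a filter chosen after seeing the data that left 12731 genes, of which 0.0628% were called. The stricter filters test fewer genes, 13423 with a minimum of 1 CPM in 2 libraries against 15868 in the main fit. The adjusted p of Parp12 was 1.58e-22 with that filter against 1.27e-07 in the main fit (edgeR). The cause of the differences in calls between settings was not tested. DESeq2 called 297 genes of the whole table where edgeR called 1. With each library left out, the median log2 fold change lay between 0.32 and 0.53 for messenger RNAs and between -0.44 and -0.28 for ribosomal RNAs. The log2 ratio of summed counts, 0.17 for all members, lay between 0.13 and 0.22, and was 0.31 for messenger RNAs, -0.35 for ribosomal RNAs and -0.93 for mt-Tp, the sole transfer RNA with counts. The log2 fold change of mt-Nd1 ran from -0.10 without control replicate 2 to 0.27 without control replicate 1; the cause was not tested. Of 150 values of single genes under alternatives, 138 kept direction and call, 11 passed the threshold and 1 changed sign.

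With the replicate number as a block 0 members were called, with medians of 0.45 and -0.36, and 1 gene of the table in either fit. The same-numbered libraries' deviations correlated at 0.02 over 8432 genes, which cannot exclude a weak link or one that affects few genes. The labels used here state no link between them beyond the number. The crossed pairing also called 0 members. Without mt-Co1 and mt-Nd4 the messenger RNA median was 0.46, which could not change because mt-Co1 lies below it and mt-Nd4 above it. Windows of 100 bases moved the shared portion of mt-Co1 to 30.8%, mt-Nd2 to 3.19%, and mt-Rnr2 and mt-Nd5 to 0%. For the 27 members at 0 counts, depth bounds the level only by counting error. The legacy fit, the crossed pairing and the removal of mt-Co1 and mt-Nd4 were also chosen after seeing the data.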
